A study of Mus musculus with 12 samples.

Results

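Skeletal muscle genes of the slow-twitch fibre were followed in mouse skin. Mouse skin includes a sheet of striated muscle, the panniculus carnosus, below the dermis. The genes were the slow-fibre troponins Tnnc1, Tnni1 and Tnnt1, the slow myosin heavy chain Myh7, the slow myosin light chains Myl2 and Myl3, the calcium pump Atp2a2 and the Z-disc genes Myoz2 and Csrp3. These 9 genes, of 55453 in the count file, were picked by symbol, and all 9 had enough counts to be tested. They were chosen with earlier results of these mice in view, among them the rise of Tnnc1 in bleomycin-treated Thy-1–KO skin, so their bleomycin values are a description of the chosen genes and not an independent test of slow fibres.

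RNA-Seq was performed on skin of 12 mice of strain C57/BL6, 3 in each of 4 groups harvested at day 21. WT PBS and WT BLM were wildtype mice given PBS or bleomycin, and KO PBS and KO BLM were mice lacking Thy-1 in all tissues given the same. Bleomycin, a drug that causes fibrosis where it is injected, was given under the back skin at 10 mg/kg per day in 2 spots for up to 14 days, and the methods give the Thy-1–KO mice as females aged 8 to 12 weeks. Each library carries a mouse number of its own (159, 160 and 161 for WT PBS, 145, 146 and 147 for WT BLM, 136, 137 and 139 for KO PBS, 141, 143 and 144 for KO BLM). The methods describe control mice as littermates, but the litter, cage or batch of each single mouse is not given. The paper's heatmap legend gives 2 to 3 mice per group, where the labels give 3.

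A muscle fibre contracts when calcium binds troponin on the thin filament, which frees myosin to pull, and relaxes when a calcium pump returns calcium to its store. Slow fibres use their own isoforms of most of these proteins, and fast fibres use others encoded by separate genes. Several slow isoforms are also used in the heart (Tnnc1, Myh7, Myl2, Myl3, Atp2a2), the slow troponins are made for a time in developing and regenerating fibres, and a second protein form of Atp2a2 is made in most cell types.

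The libraries held 26473700 to 38890450 counts each (median 31494965), and 18311 genes could be tested. Expression is given as CPM, the count scaled to the TMM-normalized size of the library. Thy1, the targeted gene, kept counts in every Thy-1–KO library. Its level was 104, 115 and 150 CPM in WT PBS, 231, 349 and 416 in WT BLM, 45.6, 96.9 and 77.4 in KO PBS and 84.7, 128 and 96.4 in KO BLM, so the genotypes did not overlap within either treatment. KO PBS mouse 136 and KO BLM mouse 141 stood apart from their groups in hair markers, genes of the hair shaft and its inner sheath. The mean of these markers was 10.33 log2 CPM in mouse 136 against −0.13 in 137 and 2.48 in 139, and 9.29 in mouse 141 against 5.59 in 143 and 6.54 in 144. It was 9.77 to 10.38 in WT PBS and 0.27 to 3.96 in WT BLM, so hair markers and bleomycin moved together in WT mice, and their part in the WT results was not tested.

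Striated muscle RNA was present in every library. The 20 pan-striated sarcomere genes summed to 4387 to 4752 CPM in WT PBS, 16555 to 33203 in WT BLM, 4799 to 19374 in KO PBS and 9272 to 17562 in KO BLM. In bulk skin, fewer muscle cells and less RNA per cell cannot be told apart, and the depth of skin taken is not given. Heart muscle was checked with 15 markers. The natriuretic peptide gene Nppa and the cardiac transcription factor genes Tbx20 and Nkx2-5 had at most 3 counts in every mouse, and the heart myosin gene Myh6 had at most 7. The summed level of the heart list was 40.3 to 51.2 CPM in WT PBS and 27.4 to 48.6 in WT BLM, 37.7 to 102 in KO PBS and 25.1 to 29.1 in KO BLM. Of the 9 heart markers tested, Mybpc3 (2.95 ± 0.92, log2), Gja5 (1.81 ± 0.40) and Tnni3 (1.16 ± 0.36) were called higher in WT BLM by edgeR and Corin (−5.39 ± 0.98) lower. Over all genes tested, 19.8% were called higher and 14.1% lower. Among the 9 heart markers tested, Sbk2, Corin and Gja5 had the highest mean CPM, and which skin cells made their RNA was not tested.

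Promoter sequence of 2 members is shown because Tnnc1 and Myh7, among the members the troponin and the myosin with the largest fold changes, have annotated starts that match the RefSeq start. Each run gives the 250 bases before the start site, 5′ to 3′ on the gene's strand, from RefSeq on GRCm38.p6. Tnnc1 lies at chr14:31208062-31208311 on the plus strand and Myh7 at chr14:54994627-54994876 on the minus strand. Capitals mark the MCAT box, the motif bound by TEAD factors, here as the reverse complement of its letters.
Tnnc1: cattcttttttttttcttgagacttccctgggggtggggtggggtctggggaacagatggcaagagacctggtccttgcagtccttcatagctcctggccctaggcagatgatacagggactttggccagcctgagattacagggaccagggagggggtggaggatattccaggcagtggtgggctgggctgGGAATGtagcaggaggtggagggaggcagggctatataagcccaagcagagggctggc
Myh7: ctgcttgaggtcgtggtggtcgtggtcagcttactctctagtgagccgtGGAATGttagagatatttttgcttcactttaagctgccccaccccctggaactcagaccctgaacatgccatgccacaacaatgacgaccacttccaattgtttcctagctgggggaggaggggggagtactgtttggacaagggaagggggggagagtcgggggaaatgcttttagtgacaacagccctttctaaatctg
The box begins at base −58 in Tnnc1 and at base −201 in Myh7, counted from the start site. Of the 9 genes, 8 had a promoter in the table (Atp2a2 did not). On both strands, the MCAT box (CATTCC) was in 3 of these 8 windows and in 12.6% of 32851 promoters. The E-box of the MyoD family (CANNTG) was in 8 and in 66.2%, the MEF2 box in 1 (Myoz2) and in 3.2%, and the TATA box (TATAAA) in 2 and in 12.4%. All of these are matches of letters, and they say nothing about binding in these mice.

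In WT mice, 8 of the 9 genes were higher with bleomycin by edgeR's quasi-likelihood test at a Benjamini-Hochberg adjusted p under 0.05, and Atp2a2 did not pass. Over all genes tested, 19.8% were called higher (34.0% in either direction). The median log2 fold change of the 9 was 4.34, against 0.02 over all genes tested. For the same 8 genes every WT BLM mouse lay above every WT PBS mouse, as did 28.3% of all genes tested. In Thy-1–KO mice 1 of the 9 was past the threshold, Tnnc1, whose rise was among the results that led to the choice, where 0.251% of all genes were called higher (0.306% in either direction, 0.0546% lower). DESeq2 called 5, 7 had an unadjusted p under 0.05 by edgeR, and the edgeR count was 4 without KO PBS mouse 136, 5 without KO BLM mouse 141 and 0 or 1 without any other single mouse. Over all genes, in either direction, DESeq2 called 1202 of 20198 and 3665 of 18311 had an unadjusted p under 0.05 by edgeR. The edgeR count over all genes was 2632 of 18739 without mouse 136 and 1162 of 18783 without mouse 141. Without overlap between KO BLM and KO PBS were 5 (Tnnc1, Tnni1, Tnnt1, Myh7 and Myoz2), against 10.8% of all genes. The same 5 were higher in all 6 BLM mice than in all 6 PBS mice, as were 4.15% of all genes.

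**Figure D1:**
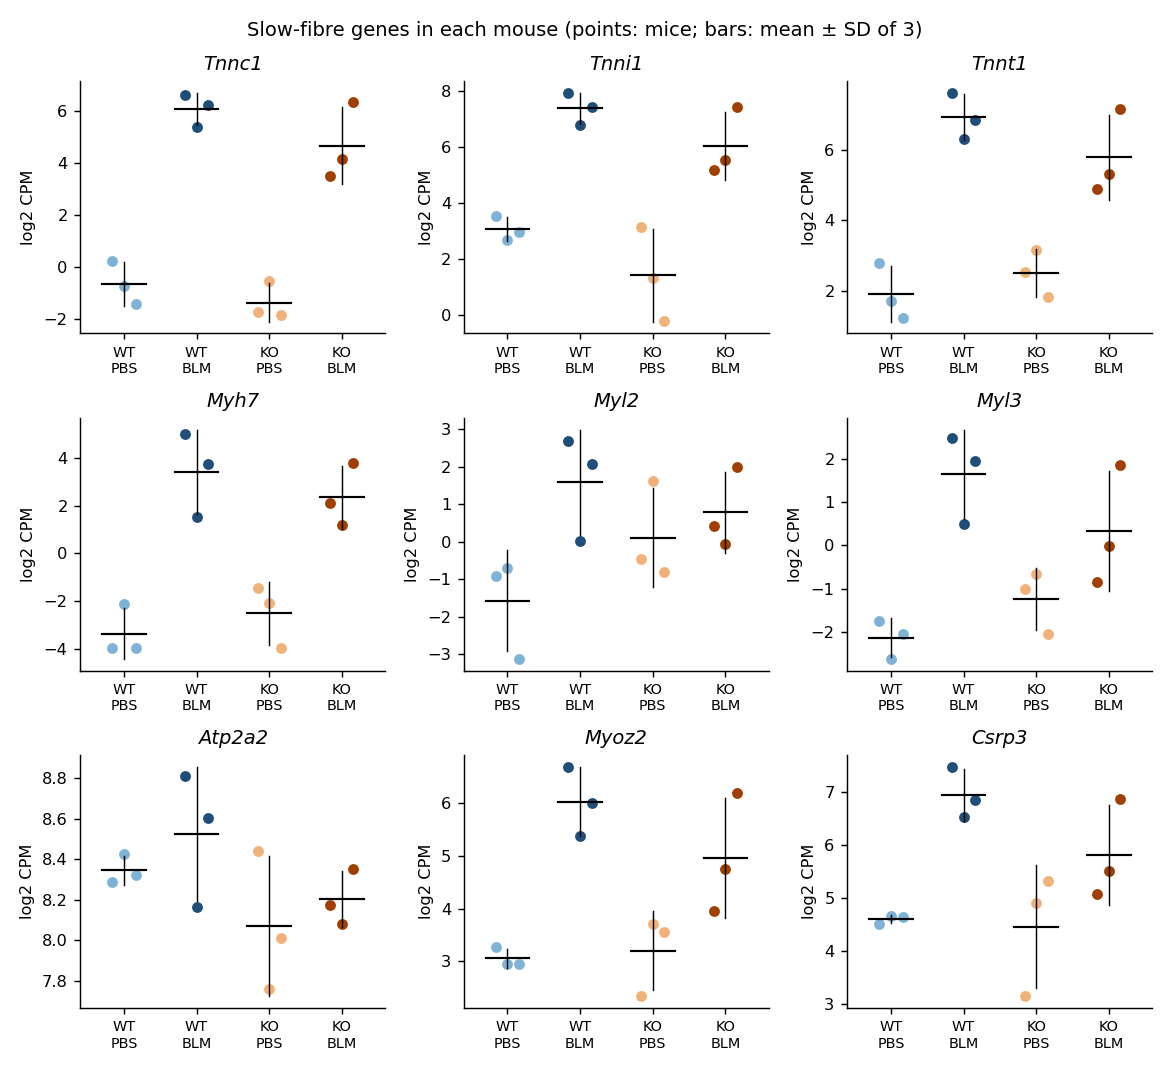
Level of each slow-fibre gene in each of the 12 mice, as log2 CPM (prior count 2) on a separate vertical scale per gene. Points are mice, bars the mean ± SD of 3, and the 5 genes Tnnc1, Tnni1, Tnnt1, Myh7 and Myoz2 have all 6 BLM mice above all 6 PBS mice while the groups of Atp2a2 overlap.

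Positions are those of the whole gene on GRCm38.p6 in GENCODE M21, and values per length use all exons of a gene. Tnnc1 (chr14:31208312-31211729, plus strand) encodes troponin C, the calcium sensor of slow and heart muscle. Its level was 1.12, 0.526 and 0.306 CPM in WT PBS and 99.8, 42.4 and 75.9 CPM in WT BLM. It was 0.233, 0.629 and 0.209 CPM in KO PBS and 11.3, 17.7 and 81.1 CPM in KO BLM. Tnnc1 was thus low in PBS skin of both genotypes, with 7 to 33 counts per mouse, and had 370 to 2549 counts in every bleomycin-treated mouse. The log2 fold change was 6.82 ± 0.92 (SE) in WT mice (113-fold, adjusted p = 0.00329, edgeR) and 6.65 ± 0.93 in Thy-1–KO mice.

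Tnni1 (chr1:135779434-135810989, plus strand), which encodes the slow troponin I that holds the filament off between contractions, was 11.5, 6.35 and 7.77 CPM in WT PBS and 246, 112 and 172 CPM in WT BLM. In the Thy-1–KO groups it was 8.74, 2.43 and 0.804 CPM with PBS and 36.1, 46.3 and 173 CPM with bleomycin. The lowest PBS value belonged to mouse 139 and the highest KO PBS value to mouse 136. Bleomycin over PBS gave a log2 fold change of 4.37 ± 0.88 in WT mice (adjusted p = 0.00809, edgeR) and 4.42 ± 0.88 in Thy-1–KO mice.

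Tnnt1 (chr7:4504570-4516382, minus strand), which encodes the slow troponin T that ties the complex to tropomyosin, was 6.83, 3.19 and 2.29 CPM in WT PBS and 198, 79.6 and 116 CPM in WT BLM. It was 5.75, 8.92 and 3.46 CPM in KO PBS and 29.6, 39.9 and 144 CPM in KO BLM. The treatments did not overlap in either genotype, and KO BLM mice 141 and 143 lay below all WT BLM mice. On the log2 scale the fold change was 5.0 ± 0.75 in WT mice (adjusted p = 0.00415, edgeR) and 3.55 ± 0.70 in Thy-1–KO mice.

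The slow myosin genes were low in PBS skin. Myh7 (chr14:54970684-54994626, minus strand), the motor protein of slow and heart muscle, was 0, 0.164 and 0 CPM in WT PBS, from 0, 5 and 0 counts. It was 32.0, 2.80 and 13.3 CPM in WT BLM. It was 0.299, 0.171 and 0 CPM in KO PBS and 4.22, 2.20 and 13.7 CPM in KO BLM. Every bleomycin-treated mouse had 71 or more counts and every PBS mouse 9 or fewer. The fitted log2 fold changes of 8.18 ± 1.49 in WT mice (adjusted p = 0.00626, edgeR) and 5.41 ± 1.28 in Thy-1–KO mice rest on those few PBS counts. Of its distinct 50-base words, 15.6% also occur in Myh6, so reads of the 2 genes can be uncertain, and its exons share 484 bases with the antisense gene Mhrt. The libraries were stranded, but the use of strand in counting is not given in the sources used here.

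Myl2 (chr5:122100951-122113472, plus strand), the regulatory light chain of slow and heart myosin, was 0.473, 0.559 and 0.0509 CPM in WT PBS and 6.34, 0.946 and 4.20 CPM in WT BLM. It was 0.665, 3.0 and 0.507 CPM in KO PBS and 1.29, 0.899 and 3.96 CPM in KO BLM. KO PBS mouse 137, with 105 counts, lay above 2 of the 3 KO BLM mice. In WT mice the fit gave a log2 fold change of 3.42 ± 1.05 (adjusted p = 0.0320, edgeR) and 0.55 ± 0.93 in Thy-1–KO mice.

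Myl3 (chr9:110741861-110769798, plus strand), the essential light chain of slow and heart myosin, was 0.237, 0.0987 and 0.178 CPM in WT PBS and 5.48, 1.34 and 3.81 CPM in WT BLM. It was 0.432, 0.571 and 0.179 CPM in KO PBS and 0.490, 0.930 and 3.53 CPM in KO BLM. The KO groups overlapped, since mouse 141 lay below mouse 137. The log2 fold change was 4.34 ± 0.86 in WT mice (adjusted p = 0.00790, edgeR) and 2.05 ± 0.78 in Thy-1–KO mice. The WT PBS values rest on 7, 3 and 7 counts.

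Atp2a2 (chr5:122453513-122502225, minus strand), the SERCA2 calcium pump of slow and heart muscle and, in its second form, of most cells, was 312, 344 and 320 CPM in WT PBS and 449, 286 and 389 CPM in WT BLM. It was 347, 216 and 257 CPM in KO PBS and 289, 271 and 327 CPM in KO BLM. All 4 groups overlapped, and the highest group mean was 1.37 times the lowest. The log2 fold change was 0.20 ± 0.21 in WT mice (95% interval −0.25 to 0.66, adjusted p = 0.454, edgeR) and 0.11 ± 0.21 in Thy-1–KO mice. The counts are per gene, so the muscle form of Atp2a2 was not separated from the general one.

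Myoz2 (chr3:123006206-123035015, minus strand), the slow and heart form of the Z-disc protein calsarcin, was 9.54, 7.70 and 7.69 CPM in WT PBS and 103, 41.5 and 64.5 CPM in WT BLM. It was 4.99, 12.9 and 11.7 CPM in KO PBS and 15.4, 26.7 and 72.8 CPM in KO BLM. KO BLM mouse 141 was the closest of the bleomycin-treated mice to the PBS range. The log2 fold change was 3.07 ± 0.59 in WT mice (adjusted p = 0.00712, edgeR) and 1.95 ± 0.56 in Thy-1–KO mice.

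Csrp3 (chr7:48830398-48848033, minus strand), the muscle LIM protein, was 22.7, 25.2 and 24.9 CPM in WT PBS and 178, 91.9 and 115 CPM in WT BLM. It was 8.78, 29.9 and 40.1 CPM in KO PBS and 33.5, 45.4 and 117 CPM in KO BLM. The KO groups overlapped, since KO PBS mouse 139 lay above KO BLM mouse 141. The fitted log2 fold change was 2.40 ± 0.57 in WT mice (adjusted p = 0.0142, edgeR) and 1.31 ± 0.55 in Thy-1–KO mice.

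The members shared their highest mouse within each bleomycin group. Mouse 145 was the highest and mouse 146 the lowest of WT BLM for all 9 genes, and mouse 144 was the highest of KO BLM for all 9. Among the KO BLM mice, 141 was the lowest for 6 genes and 143 for 3. In WT PBS no mouse led throughout, with mouse 159 highest for 5 genes and mouse 160 for 4. The genes come from the same libraries, so these rankings are those of 12 samples and not of 9 independent measures.

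Per length of exon, the troponins and the myosins stood far apart. In WT BLM, mean CPM per kilobase was 69.8 ± 27.7 (SD, n = 3) for Tnnc1, 59.6 ± 27.6 for Tnnt1, 49.1 ± 18.6 for Tnni1, 48.0 ± 16.7 for Csrp3 and 20.4 ± 9.12 for Myoz2. Myl2, Myh7 and Myl3 were at 1.96 ± 1.39, 1.86 ± 1.72 and 1.73 ± 1.02, neighbours that did not differ beyond their spread. In WT PBS the highest after Atp2a2 (53.5 ± 2.68) was Csrp3, at 9.08 ± 0.499, and no other member exceeded 2.43. Thus the slow troponins reached a level per length near that of Atp2a2 (61.6 ± 13.5) in WT BLM while the slow myosin genes did not.

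**Figure D2:**
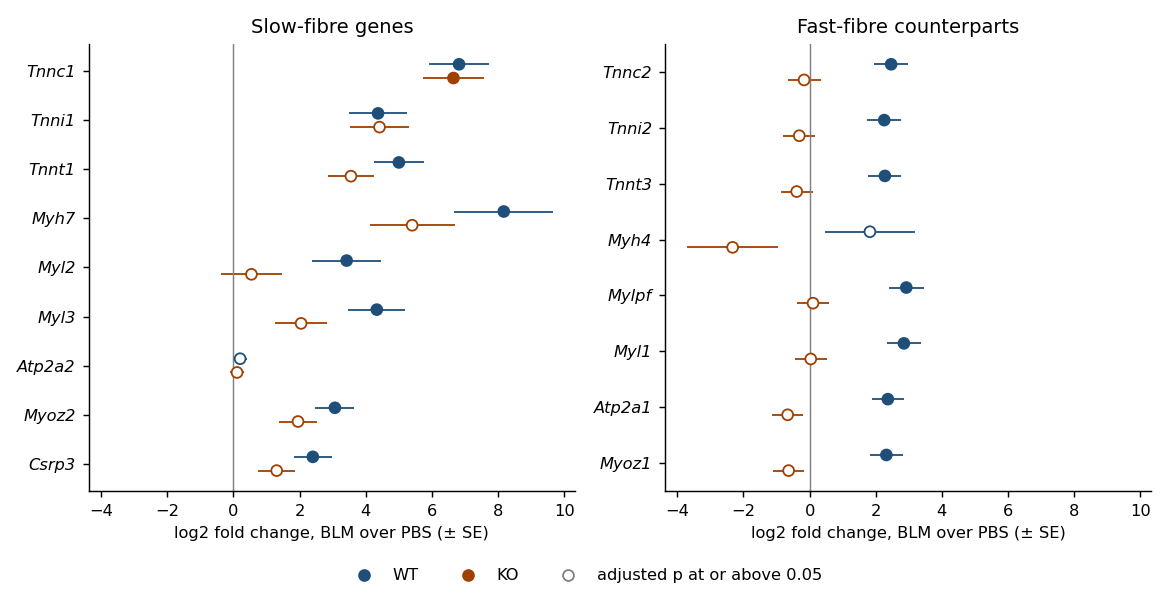
Log2 fold change of BLM over PBS from edgeR, ± SE, for the slow-fibre genes (left) and their fast-fibre counterparts (right). Blue marks WT and brown Thy-1–KO mice, and open symbols have an adjusted p at or above 0.05; the KO values of the slow genes lie at or above 0.11, and those of the fast genes between −2.33 and 0.10.

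The fast counterparts (Tnnc2, Tnni2, Tnnt3, Myh4, Mylpf, Myl1, Atp2a1 and Myoz1) show how the same libraries stood for the other fibre type. In WT mice 7 of the 8 were called higher in WT BLM by edgeR, where 19.8% of all genes tested were. Myh4 was not called, with a log2 fold change of 1.82 ± 1.36. The median log2 fold change of the 8 was 2.34. Mylpf, the fast regulatory light chain, rose by 2.92 ± 0.53 (adjusted p = 0.00607, edgeR) and Tnnc2, fast troponin C, by 2.46 ± 0.53 (adjusted p = 0.00988, edgeR). In Thy-1–KO mice 0 of the 8 were called by edgeR, with 0 at an unadjusted p under 0.05 and 0 by DESeq2, and their median was −0.35. The slow members had a median of 2.05 in the same comparison. In KO PBS, mice 137 and 139 had 21821 and 17405 CPM of fast counterparts in sum, beside 9110 to 21803 in the WT BLM mice, while mouse 136 had 4887 and WT PBS had 2673 to 3711. The KO BLM mice had 5855 to 10174.

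Set against its fast counterpart in the same mouse, the ratio of slow to fast isoform was higher in every BLM mouse than in every PBS mouse for 4 of 8 pairs. The log2 ratio of Tnnc1 to Tnnc2 was −7.84, −8.51 and −9.41 in WT PBS and −4.09, −5.08 and −3.60 in WT BLM. It was −9.95, −10.98 and −11.91 in KO PBS and −5.74, −5.03 and −3.95 in KO BLM. The ratio of Tnni1 to Tnni2 was −3.89 or more in all BLM mice and −4.49 or less in all PBS mice, that of Tnnt1 to Tnnt3 −5.47 or more against −6.44 or less, and that of Myh7 to Myh4 −11.00 or more against −11.13 or less. The gap of the Myh7 pair was small, and WT BLM mouse 146 had high Myh4 RNA (180402 counts) and few Myh7 counts (86).

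For Myl2, Myl3 and Myoz2 the ratios overlapped between treatments over the 12 mice. Within Thy-1–KO mice Myoz2 to Myoz1 was also separated (−2.82 or more with bleomycin, −3.57 or less with PBS). Atp2a2 to Atp2a1 went the other way in WT mice, with a mean of −1.59 ± 0.17 (SD, n = 3) in WT PBS and −3.71 ± 0.70 in WT BLM. Atp2a1 was called higher in WT BLM and Atp2a2 was not. The median over the 8 pairs was −7.14, −7.88 and −8.63 in WT PBS, −4.07, −5.17 and −3.72 in WT BLM, −7.80, −8.85 and −10.51 in KO PBS and −5.60, −4.96 and −3.54 in KO BLM. Every BLM mouse was above every PBS mouse, and the means differed by 3.96 log2 units. These ratios use members chosen on the same libraries and were not tested.

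**Figure D3:**
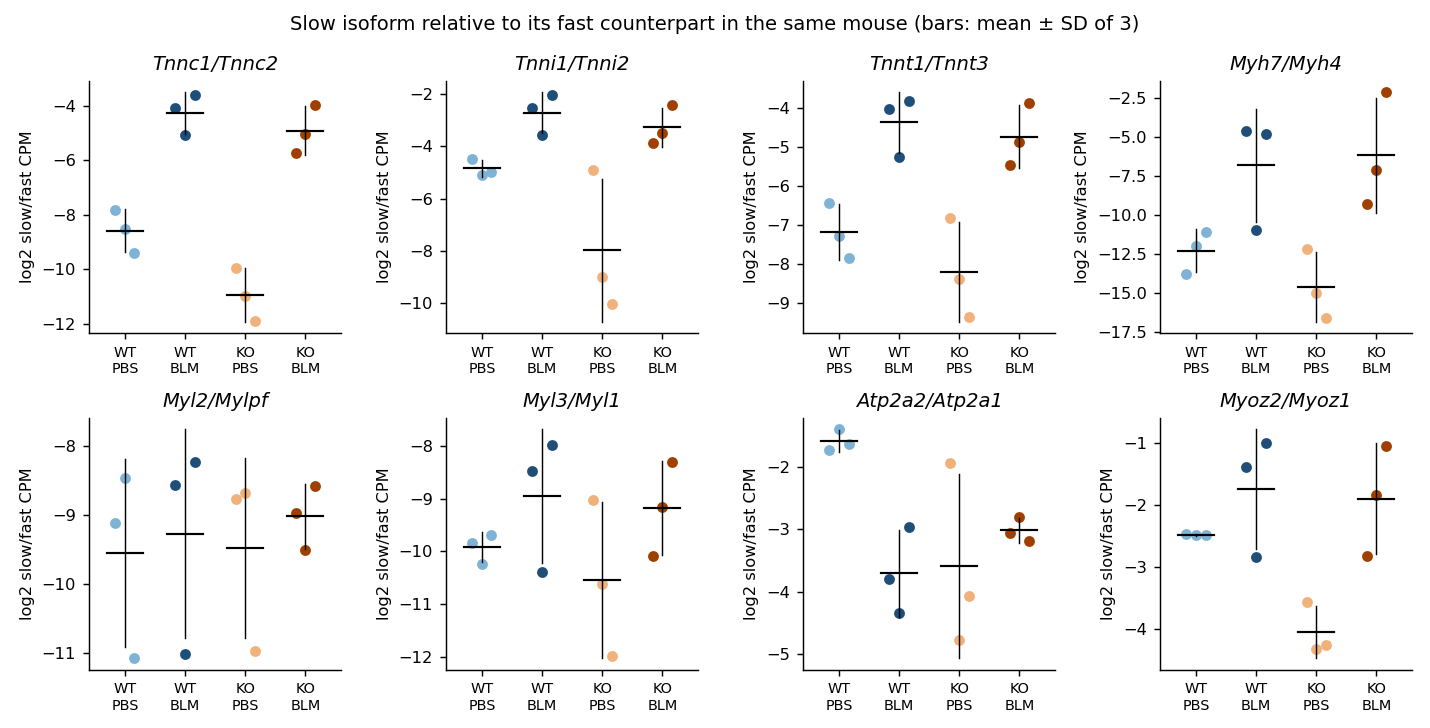
Log2 ratio of the CPM of each slow isoform to that of its fast counterpart in the same mouse, with a prior count and a separate scale per pair. Points are mice and bars the mean ± SD of 3; the 3 troponin pairs and Myh7/Myh4 have all BLM mice above all PBS mice, and Atp2a2/Atp2a1 is highest in WT PBS.

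The 7 paired members other than Atp2a2 were also summed. Their sum was 29.7, 18.6 and 18.3 CPM in WT PBS and 691, 281 and 450 CPM in WT BLM, where the 7 fast counterparts had 2674, 2336 and 1675 CPM and 11885, 15956 and 6074 CPM. In Thy-1–KO mice it was 21.1, 28.7 and 16.9 CPM with PBS and 98.5, 135 and 492 CPM with bleomycin, where the fast counterparts had 3558, 15901 and 13087 CPM and 6615, 3959 and 7181 CPM. KO PBS mice 137 and 139 had the high fast muscle RNA and the low hair markers of the WT BLM mice. Their sums over these 7 genes were within or below the range of WT PBS. These sums include Tnni1, at 2.43 and 0.804 CPM in mice 137 and 139 against 6.35 to 11.5 in WT PBS. In mouse 137, Tnnt1 (8.92 CPM), Myoz2 (12.9), Myl2 (3.0), Myl3 (0.571) and Myh7 (0.171) lay above every WT PBS mouse. In mouse 139 only Myoz2 (11.7) did. With Csrp3 added, the sums were 58.5 and 57 CPM in mice 137 and 139, above the 43.2 to 52.4 CPM of WT PBS and below the 132 CPM or more of every bleomycin-treated mouse. The 24 other slow-fibre and slow-enriched genes were also above WT PBS in these mice, at 2823 and 2547 CPM in sum against 1121 to 1251. KO BLM mouse 141, with high hair markers, had the lowest slow sum of the bleomycin-treated mice.

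**Figure D4:**
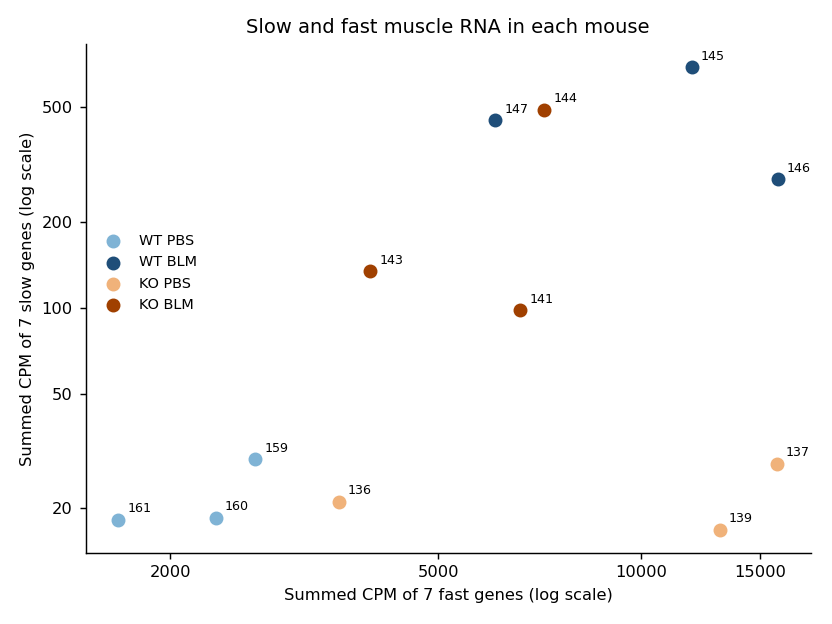
Summed CPM of 7 slow-fibre genes against that of their 7 fast counterparts in each mouse, both on log scales, with mouse numbers. All 6 BLM mice lie at or above 98.5 CPM of slow genes and all 6 PBS mice at or below 29.7, while the fast sum of KO PBS mice 137 and 139 is as high as in WT BLM mice.

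The genotypes were compared within each treatment. Among PBS mice 0 of the 9 genes were called by edgeR (0.0655% of all genes were, 0.0382% higher and 0.0273% lower), with 0 at an unadjusted p under 0.05 and 0 by DESeq2. None of the 9 was higher in every KO PBS mouse than in every WT PBS mouse, against 8.62% of all genes, and none was higher in every KO BLM than in every WT BLM mouse, against 14.6%. The log2 differences of KO PBS over WT PBS ran from −1.10 ± 0.79 for Tnni1 (95% interval −2.85 to 0.65) to 1.97 ± 1.02 for Myl2 (−0.29 to 4.24). Without KO PBS mouse 136, Tnni1 was called lower in KO PBS, the only member to be called there. In that fit edgeR also called 20 of 20 pan-striated genes higher, 21 of 21 hair genes lower and 0 of 12 fibroblast and matrix genes. The share of all genes called in it is not given here. With all mice, the fast counterparts had a median of 1.88 between the PBS groups and 0 of 8 were called by edgeR. Of these 8, 7 had an unadjusted p under 0.05 by edgeR, as did 3727 of all 18311 genes. DESeq2 called 7 of the 8 higher, and its share over all genes is not set beside that count.

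Among bleomycin-treated mice 0 of the 9 were called by edgeR (0.0928% of all genes were, 0.0546% higher and 0.0382% lower), with 0 at an unadjusted p under 0.05 and 0 by DESeq2. All 9 were lower on average in KO BLM, with log2 differences from −1.26 ± 0.99 for Myh7 to −0.34 ± 0.21 for Atp2a2 and a median of −0.98. For all 9 the WT BLM and KO BLM ranges overlapped. The share of all genes that lay wholly lower in KO BLM was not counted, so the overlap has no background beside it. The interval of Tnnc1 was −2.53 to 0.56 and that of Csrp3 −2.19 to 0.24; both include 0. The fast counterparts had a median of −0.98, with 0 of 8 called by edgeR, 1 at an unadjusted p under 0.05 and 0 by DESeq2.

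The bleomycin response itself was compared between genotypes as an interaction. None of the 9 members passed (0 by edgeR, 0 at an unadjusted p under 0.05, 0 by DESeq2), and 0% of all genes did by edgeR. The difference, KO minus WT, was −0.17 ± 1.19 for Tnnc1 and 0.04 ± 1.07 for Tnni1, with intervals of −2.79 to 2.45 and −2.33 to 2.42. It was −2.88 ± 1.38 for Myl2 and −2.77 ± 1.98 for Myh7. For the 8 fast counterparts it ran from −4.15 to −2.57, with 0 called by edgeR, 7 at an unadjusted p under 0.05 and 7 by DESeq2. By edgeR 20 of 20 pan-striated and 16 of 18 other fast-fibre genes also had an unadjusted p under 0.05. The shares of all genes at that unadjusted threshold and by DESeq2 are not set beside these counts. The difference between slow and fast genes in this contrast was not tested.

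Other muscle lists gave the surroundings of these genes. Of 24 other slow-fibre and slow-enriched genes, 19 were called higher and 1, Bdh1, lower in WT BLM, with a median of 2.34. Over all genes tested, 19.8% were called higher and 14.1% lower in that comparison. Ankrd1, a stretch-responsive ankyrin repeat protein, rose by 4.81 ± 0.79 (adjusted p = 0.00487, edgeR), the heart and embryonic troponin T gene Tnnt2 by 3.80 ± 0.61 (adjusted p = 0.00474), and Casq2, the calcium store protein of slow and heart muscle, by 3.68 ± 0.47 (adjusted p = 0.00314). In Thy-1–KO mice, where 0.251% of all genes tested were called higher, 1 of the 24 was called. It was Ankrd1, which rose by 5.71 ± 0.85 (adjusted p = 0.0341, edgeR). Of the 24, DESeq2 called 4 higher and 9 had an unadjusted p under 0.05 by edgeR. Without KO PBS mouse 136 edgeR called 6 of them higher and 1 lower (8 and 1 without mice 136 and 141). Beside these, DESeq2 called 1202 of all 20198 genes and 3665 of 18311 had an unadjusted p under 0.05 by edgeR. EdgeR called 2632 of 18739 genes without mouse 136 and 4164 of 18688 without mice 136 and 141. All 20 pan-striated genes and 17 of 18 other fast-fibre genes were called higher in WT BLM, against 19.8% of all genes tested. In Thy-1–KO mice edgeR called 0 of either (1 and 2 at an unadjusted p under 0.05, 0 and 0 by DESeq2). Without KO PBS mouse 136, edgeR called 4 of the 20 and 3 of the 18 lower in KO BLM. For the 9 members the same comparison had 7 at an unadjusted p under 0.05 and 5 by DESeq2.

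Of 22 regulators linked to the slow fibre programme, 16 were called higher and 1, Hdac4, lower in WT BLM, with a median of 1.0. The shares of all genes tested were 19.8% higher and 14.1% lower. Vgll2, a partner of TEAD factors in muscle, rose by 3.76 ± 0.55 (adjusted p = 0.00405, edgeR), the nuclear receptor Esrrg by 2.88 ± 0.58 (adjusted p = 0.00809), and the muscle transcription factor Mef2c by 2.81 ± 0.47 (adjusted p = 0.00523). Of the 22, 0 were called in Thy-1–KO mice by edgeR, with 5 at an unadjusted p under 0.05, and DESeq2 called 1 higher and 1 lower. Without KO PBS mouse 136 edgeR called 2 higher and 2 lower, in a fit that called 2632 of 18739 genes in either direction.

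In the list of embryonic, regenerating and denervated muscle genes, 20 of 22 were called higher in WT BLM, against 19.8% of all genes tested. The median log2 fold change of the list was 4.92. The largest rises were those of the embryonic myosin Myh3 (7.16 ± 1.18, adjusted p = 0.00487, edgeR) and Mymk, which fuses myoblasts (6.57 ± 0.84, adjusted p = 0.00314, edgeR). Among Thy-1–KO mice 3 were called higher, against 0.251% of all genes tested. They were Myh3, Mymk and Chrng, the fetal subunit of the acetylcholine receptor. All 22 fold changes of the list were positive, with a median of 2.37. DESeq2 called 15 of the 22 higher, 16 had an unadjusted p under 0.05 by edgeR, and the edgeR count was 9 without KO PBS mouse 136 and 12 without mice 136 and 141. Over all genes, in either direction, DESeq2 called 1202 of 20198 and 3665 of 18311 had an unadjusted p under 0.05 by edgeR. The edgeR count over all genes was 2632 of 18739 without mouse 136 and 4164 of 18688 without mice 136 and 141. Myh3 averaged 429 ± 244 CPM (SD, n = 3) in WT BLM and 142 ± 117 in KO BLM, against 3.01 ± 3.80 in WT PBS and 1.12 ± 0.589 in KO PBS. The mean of the list was 0.29 to 1.92 log2 CPM in the 6 PBS mice and 3.52 to 5.99 in the 6 BLM mice. A rise of Myh3 in Thy-1–KO mice was also among the earlier results.

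**Figure D5:**
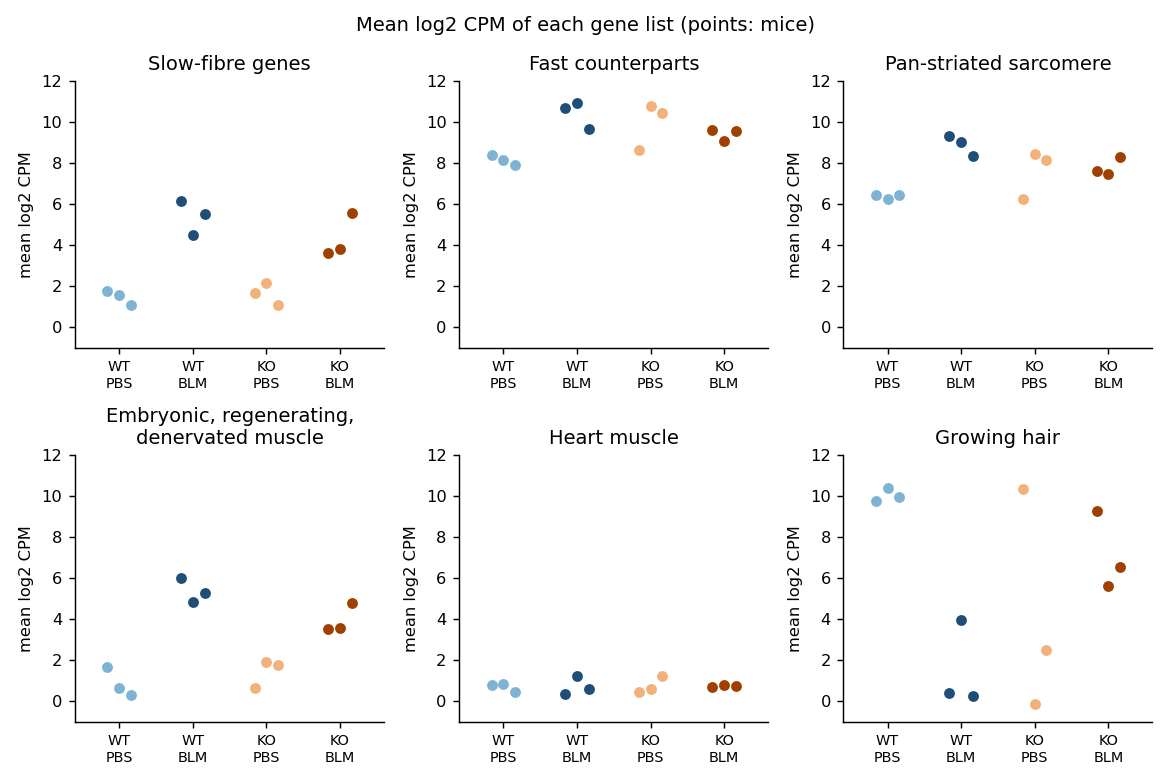
Mean log2 CPM of 6 gene lists in each of the 12 mice (points). The slow-fibre list and the list of embryonic, regenerating and denervated muscle genes have all BLM mice above all PBS mice, whereas the fast and pan-striated lists are as high in 2 KO PBS mice as in BLM mice, and the heart list stays between 0.38 and 1.23. The hair list is high in WT PBS, 1 KO PBS and 1 KO BLM mouse. KO BLM mice 143 and 144 lie between, at 5.59 and 6.54, above the WT BLM mice (0.27 to 3.96).

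Across the 12 mice the mean log2 CPM of the 8 members other than Atp2a2 was compared with every gene outside the lists that had a mean of at least 1 log2 CPM. The 5 most alike were Pnmal2 (r = 0.975), Vdac2 (0.973), Phlda3 (0.972), Exoc3l (0.971) and Lrrn1 (0.970), by Pearson correlation over 12 mice that share the treatment. They were picked for following a mean that was high with bleomycin, so their fold changes are a description with no test. In WT BLM over WT PBS the log2 fold change was 4.56 ± 0.54 for Pnmal2, 4.05 ± 0.57 for Lrrn1, 2.22 ± 0.29 for Exoc3l, 1.07 ± 0.15 for Phlda3, a p53 target, and 0.40 ± 0.10 for Vdac2, a mitochondrial channel. Among listed genes outside the members the closest were Tnnt2 (0.988), Chrng (0.979), Myl4, the embryonic light chain (0.977), and Myh3 (0.973).

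Among markers of other cells of the skin, 10 of 12 macrophage and 9 of 12 fibroblast and matrix genes were called higher in WT BLM. So were 1 of 10 keratinocyte and 3 of 11 smooth muscle genes, and 19.8% of all genes tested. Of 12 adipocyte genes 0 were called (0 at an unadjusted p under 0.05, 0 by DESeq2). Of the 21 hair genes tested, 11 were called lower by edgeR and 8 by DESeq2, and all 21 were at an unadjusted p under 0.05, with a median of −7.28. Over all genes, edgeR called 14.1% lower. In either direction, DESeq2 called 7682 of 22152 genes and 8686 of 18311 had an unadjusted p under 0.05 by edgeR. Without KO PBS mouse 136, or with only the WT groups in the fit, edgeR called all 21 lower. Those fits called 8565 of 18739 and 7803 of 17494 genes in either direction. In Thy-1–KO mice the hair genes had a median of −0.68 with all mice and 7.49 without mouse 136, when edgeR called 12 higher in KO BLM. In that comparison the fit without mouse 136 called 2632 of 18739 genes in either direction. With all mice edgeR called 1 gene of these lists in Thy-1–KO mice, the smooth muscle gene Tagln, higher in KO BLM (0.86 ± 0.13), and DESeq2 also called genes in the smooth muscle, keratinocyte, adipocyte, macrophage and fibroblast lists. Over all genes edgeR called 56 of 18311 in that comparison and DESeq2 1202 of 20198. The smooth muscle list had a median of 0.37 in WT BLM, with Des, Synpo2 and Acta2 called higher and Smtn lower (−1.11 ± 0.36, adjusted p = 0.0402, edgeR). Des, the intermediate filament gene desmin, is also on the pan-striated list, and its mean was 2224 ± 716 CPM (SD, n = 3) in WT BLM against 275 ± 33.6 in WT PBS. The part of these cell types in the members' values was not tested.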

How the data were processed

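RNA-Seq of skin from 12 mice was analysed from the deposited table of raw counts per gene. Per the labels and methods, the authors extracted RNA with RNeasy, made stranded TruSeq mRNA libraries and sequenced read pairs on a NextSeq. The submitters' notes name GRCm38.p6 and MultiQC 1.7. The aligner, the counter and its use of strand are not given in the sources used here. Symbols were matched to gene IDs in GENCODE M21. Genes were filtered with filterByExpr (minimum count 10, total 15), which left 18311, and tested with edgeR 4.0.16 (R 4.3.3, limma 3.58.1; TMM, quasi-likelihood, 1 model over 4 groups, Benjamini-Hochberg threshold 0.05 over all genes tested). DESeq2 1.42.0 was an alternative. Other alternatives were RLE or upper-quartile normalization, no filter or a mean CPM of at least 1, only the groups compared, another prior count and each mouse left out. Log2 CPM used a prior count of 2. The steps were tested on simulated data. Members and lists were chosen with earlier results of these data known. Named genes were all members, their 8 fast counterparts, up to 4 genes per list with the largest called change in the comparison at hand (where none was called, up to 3 with the highest CPM), the 5 unlisted genes closest in profile, and Thy1. Counting error and mouse-to-mouse spread both limit genes with few counts. In a fit over the 4 groups of 3 mice, the groups share 1 estimate of the spread. The p-values of a comparison therefore also depend on mice outside it. Between the WT groups edgeR called 6222 of 18311 genes with all mice and 8565 of 18739 without KO PBS mouse 136. The biological coefficient of variation was 34.9%. Figures were drawn with matplotlib 3.10.9 (Python 3.11.15).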

Additional observations from a re-analysis of the deposited data

How the results depend on the processing

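No paired analysis was possible because each mouse has a number of its own, shared with no other group, and its litter is not given. In WT mice 8 members were called, and 6 to 8 with 1 mouse left out: Myl2 lost its call without mouse 159, 160, 161, 145 or 147 and Csrp3 without 159 or 160. In Thy-1–KO mice the 1 call became 3 with no filter on low counts, 5 with DESeq2 and 0 with only the groups compared, and ranged from 0 to 5 with 1 mouse left out (4 without KO PBS mouse 136 and 5 without KO BLM mouse 141). It was 5 without both, a setting chosen after seeing the data. Over all genes, calls in Thy-1–KO mice were 56 of 18311 in the main fit and 176 of 34689 with no filter. They were 1202 of 20198 with DESeq2 and 0 of 17369 with only the groups compared. Leaving out mice gave 2632 of 18739 without 136, 1162 of 18783 without 141 and 4164 of 18688 without both. Between the PBS groups the 0 calls became 1 (Tnni1, lower in KO PBS) without mouse 136, and also without 136 and 141, and ranged from 0 to 1 with 1 mouse left out. Without mouse 136 edgeR also called 20 of 20 pan-striated genes higher and 21 of 21 hair genes lower there. With only the PBS groups in the fit 7 members could be fitted. The KO BLM against WT BLM and interaction calls were 0 throughout. The cause was not tested. The difference of 3.96 in the median slow to fast ratio ranged from 3.55 to 4.22 with 1 mouse left out and was 4.02 with a prior count of 0.5. Log2 values that turned sign with mice left out are given with their lowest and highest value. In Thy-1–KO mice these were Atp2a2 (−0.034 to 0.33) and Myl2 (−0.35 to 1.79), and between PBS groups Csrp3 (−0.32 to 0.53). For the interaction they were Tnni1 (−1.0 to 1.7, also −0.19, −0.20, −0.21 and −0.44), Tnnc1 (−1.50 to 0.53, also 0.19, 0.13, 0.26, 0.17 and, without 136 and 141, 0.018) and Atp2a2 (−0.25 to 0.13, also 0.059 and 0.12). Myl2, Myl3 and Myh7 had too few counts in PBS skin for precise fold changes, and Tnnc1 had only 7 to 33 counts per PBS mouse.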
